A study of Mus musculus with 17 samples.

Results

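The constitutive proteasome genes were 46 of the 18193 mouse genes that had a probe set with a single gene symbol. They were all the genes whose symbol starts with Psma, Psmb, Psmc, Psmd, Psme, Psmf or Psmg followed by a digit, apart from Psmb8, Psmb9 and Psmb10, the catalytic subunits of the immunoproteasome. The rule uses symbols and no measured value. The proteasome is the barrel-shaped protease that degrades ubiquitin-tagged proteins. Its core is a stack of rings built from alpha (Psma) and beta (Psmb) subunits, and Psmb5, Psmb6 and Psmb7 cut the chains inside it. A regulatory cap with a ring of ATPases (Psmc) and a set of non-ATPase subunits (Psmd) binds, unfolds and feeds in the tagged protein. Other caps (Psme), an inhibitor (Psmf1) and assembly chaperones (Psmg and some Psmd genes) attach to the core or help to build it. In blood and immune cells, interferon can replace the 3 constitutive catalytic subunits by Psmb10, Psmb9 and Psmb8, and then the peptides offered on MHC class I change.

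Expression was measured on 17 Affymetrix arrays of RNA from sorted mouse marrow cells of femurs and tibias. Piga makes the first step of the glycosylphosphatidylinositol (GPI) anchor, which holds many proteins at the cell surface, and cells without it lose those proteins. A fluorescent antibody mixture against CD24, CD48 and Gr-1 was used to sort GPI-negative from GPI-positive cells. The sort reads the surface and not the gene, and the sources used here do not give the cells in which the Pig-a deletion was driven or the promoter that drove it. In batch 1, GPI-negative cells (3 arrays) and GPI-positive cells (3 arrays) came from Pig-a knock-out mice, so both fractions came from mice of the same label. In batch 2, the first group held GPI-negative cells of C57BL/6 recipients of knock-out marrow (4 arrays, called knock-out-graft cells). That donor marrow had been kept for 30 minutes in 10 nM aerolysin, a pore-forming toxin that kills cells with GPI-anchored proteins on their surface, and the recipients had received 9 Gy of whole-body irradiation. The second group held GPI-positive cells of C57BL/6 mice that had been given wild-type marrow (3 arrays, called wild-type-graft cells). The third held GPI-positive cells of untransplanted wild-type C57BL/6 mice (4 arrays, called wild-type cells). The labels state aerolysin and irradiation only with the knock-out graft, and they give no age. Values are log2 signals, and levels were compared within a gene only.

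Piga itself was lower in both GPI-negative groups. Its log2 signal lay between 1.65 and 1.92 in knock-out GPI-negative cells, against 3.54 to 4.11 in knock-out GPI-positive cells. It lay between 0.28 and 0.92 in knock-out-graft cells, against 4.02 to 4.25 in wild-type-graft cells and 4.07 to 4.30 in wild-type cells. The fractions also differed in markers of other cell types. All 8 T and NK cell markers were higher in knock-out GPI-negative than in knock-out GPI-positive cells (median log2 difference 3.89), and their mean level per array was 6.00 to 6.15 against 2.03 to 2.17. All 8 granulocyte markers were lower there (mean level 7.70 to 7.80 against 9.10 to 9.14), as were 6 of 6 macrophage markers (1.39 to 1.41 against 2.55 to 2.61) and 7 of 11 cell cycle markers (5.19 to 5.81 against 5.93 to 5.96), while 4 of 4 plasmacytoid dendritic cell markers were higher. Of the 6 plasma cell markers 3 were lower there (Igha, Jchain and Xbp1) and 0 higher, and no erythroid marker was called. No marker was at 0 on all arrays of a group. Control transcripts added at hybridisation were brighter in knock-out GPI-negative cells (mean log2 8.10 to 8.70) than in knock-out GPI-positive cells (6.05 to 6.59). The 3′ minus 5′ log2 signal of the Gapdh control probe sets, a sign of RNA quality, was -0.29, -0.04 and -0.16 in knock-out GPI-negative cells, against -0.997, -1.02 and -1.03 in knock-out GPI-positive cells. These groups were apart, and the part of either control in the knock-out differences was not tested. In batch 2 the Gapdh value ran from -0.95 to -0.33 in knock-out-graft, -0.88 to -0.49 in wild-type-graft and -0.96 to -0.84 in wild-type cells, which overlap. Within a batch the deposited values of all arrays had the same distribution. In bulk RNA, fewer cells of a type and less RNA per cell cannot be told apart. The 3 knock-out GPI-positive arrays were very close to each other, with a median SD over the 2849 brightest genes of 0.0487, against 0.169 in knock-out GPI-negative, 0.163 in knock-out-graft, 0.144 in wild-type-graft and 0.131 in wild-type cells.

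Of the 46 genes, 45 were bright enough to be tested, and 32 of these were among the brightest 20% of the 14245 genes tested. The exception was Psmb11, the thymus-specific beta subunit, which stayed between the 1.38 and the 34.2 percentile mark of every array. Psma8, the testis-specific alpha subunit, passed the filter with low signals, between the 31.7 and the 64.4 percentile mark. Psme2, the partner of Psme1 in its cap, shares its probe set with Psme2b and was not analysed here. Psmc3ip, a meiotic recombination factor, and Psme3ip1, a protein that binds Psme3, have symbols that match and are no proteasome subunits. They are among the 45 tested genes, and they are described apart from the subunits. Without them 43 genes remained, and the calls differed in 1 comparison, that of the 2 recipient groups, where 3 of 43 were called (6.98%). A gene is called higher or lower where limma's adjusted p over the 14245 genes was under 0.05. Counts at an unadjusted p under 0.05 were not taken over all genes, so they do not show whether a group of genes stands out. The median SD between arrays of a group over the 45 genes ran from 0.0557 in knock-out GPI-positive to 0.155 in knock-out-graft cells.

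**Figure D1:**
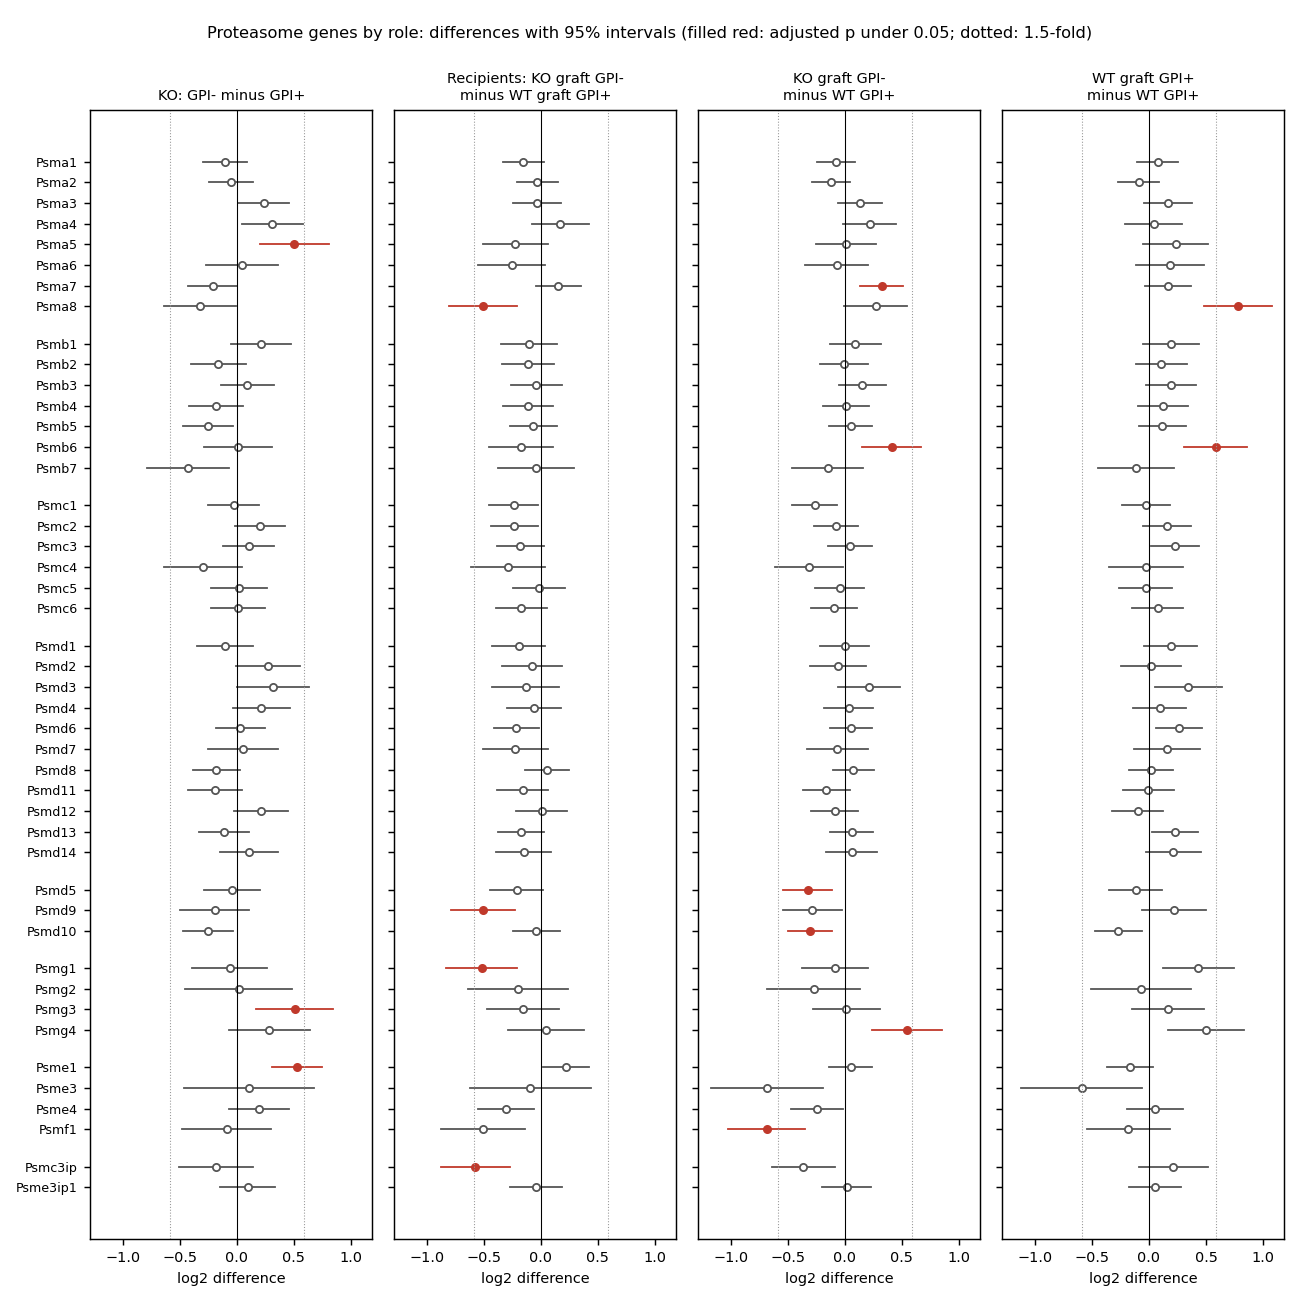
Log2 differences of the 45 tested genes by role (y axis) in 4 comparisons (panels, x axis: log2 difference with its 95% interval), with called genes filled in red and dotted lines at 1.5-fold. Most intervals lie inside the dotted lines, 36 of 45 in the knock-out and 37 of 45 between the recipients, and the called genes differ from panel to panel.

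The first comparison sets the GPI-negative against the GPI-positive fraction of knock-out marrow. The constitutive proteasome genes moved little. By limma, 3 of the 45 genes were higher in knock-out GPI-negative cells (Psma5, Psmg3 and Psme1) and 0 were lower, while 29.5% of all genes tested were called, 14.8% as higher and 14.8% as lower. At an unadjusted p under 0.05, 6 were higher and 4 lower. Among equally bright genes the share called was larger still: 44.5% of the brightest 20%, against 2 of the 32 proteasome genes in that range. The median log2 difference over the 45 genes was 0.01 (all genes -0.01), with a range from -0.43 to 0.53, and the 95% interval of 36 of the 45 lay within 1.5-fold, against 48.5% of all genes. The arrays of the 2 fractions did not overlap for 18 of the 45 genes (40%), against 43.2% of all genes. Fractions that lie apart are thus common here.

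Psme1, the alpha subunit of the interferon-inducible cap of the core, had the smallest p. Psme1 had log2 signals of 7.04, 7.11 and 7.01 in knock-out GPI-negative cells, against 6.45, 6.49 and 6.63 in knock-out GPI-positive cells. The fractions were apart, and the difference was 1.44-fold (log2 difference 0.53 ± 0.10 (SE), adjusted p = 0.000555). It was called under all 16 alternative settings, with adjusted p from 0.000254 to 0.0374. Psma5, an alpha ring subunit, had 6.56, 6.76 and 6.66 in knock-out GPI-negative cells, against 6.12, 6.19 and 6.16 in knock-out GPI-positive cells. Here too the fractions were apart (1.42-fold, log2 difference 0.50 ± 0.15 (SE), adjusted p = 0.0116), but the other 2 probe sets of Psma5 gave differences of -0.05 and 0.15, and with the mean of the probe sets the call was lost (adjusted p = 0.207). Psmg3, a chaperone of core assembly, had 4.27, 3.37 and 4.15 in knock-out GPI-negative cells, against 3.42, 3.47 and 3.38 in knock-out GPI-positive cells (1.42-fold, log2 difference 0.51 ± 0.16 (SE), adjusted p = 0.0221). Its difference came from knock-out GPI-negative replicates 1 and 3, and replicate 2 lay just below all 3 knock-out GPI-positive arrays. The Psmg3 call was lost without knock-out GPI-negative replicate 1 or 3 or knock-out GPI-positive replicate 1 or 3 (adjusted p 0.0582 to 0.139).

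Psme1 is printed here because it was called in the knock-out under all settings tried. The window spans 250 bases before to 50 bases after the gene's start, from RefSeq on build GRCm38.p6, at chr14:55578244-55578543 on the plus strand, and the capitals mark a match to the core of the interferon-stimulated response element, which is GAAA, any 2 bases and GAAA again, read on the other strand.
Psme1: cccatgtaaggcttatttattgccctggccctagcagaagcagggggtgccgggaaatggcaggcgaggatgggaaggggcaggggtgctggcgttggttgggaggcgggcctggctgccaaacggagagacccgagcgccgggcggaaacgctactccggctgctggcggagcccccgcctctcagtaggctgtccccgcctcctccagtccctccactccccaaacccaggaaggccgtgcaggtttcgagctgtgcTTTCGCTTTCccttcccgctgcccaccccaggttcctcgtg
Such windows were found for 38 of the 46 genes (41 windows, since some genes have several starts). This element, searched on both strands, was in 5 of the 41 windows (12.2%), those of Psmb3, Psmd4, Psmd9, Psme1 and Psmg4, against 3.44% of all 32851 windows. Of these 5 genes only Psme1 was called in the knock-out, and Psmb3, Psmd4, Psmd9 and Psmg4 had log2 differences of 0.09, 0.22, -0.19 and 0.29. Their other kept probe sets gave 0.62 for Psmb3, -0.17 and 0.00 for Psmd4 and -0.48 and 0.25 for Psmd9. With the mean of the probe sets Psmb3 was called as higher. It was also called with that mean for knock-out-graft and wild-type-graft against wild-type cells, where its other probe set gave 0.76 and 0.87. The gamma-activated site TTCNNNGAA was in 2 of the 41 windows (4.88%), against 8.30% of all windows, and the CCAAT box in 15 (36.6%), against 37.4%. The printed matches overlap no other motif searched. The windows of Psmb8, Psmb9 and Psmb10 held no match to the interferon-stimulated response element. That of Psmb8 matched the gamma-activated site and that of Psmb9 the CCAAT box. A match describes letters and not a bound site.

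Among the catalytic subunits none was called. Psmb7 had log2 signals of 6.96, 7.25 and 6.61 in knock-out GPI-negative cells, against 7.34, 7.36 and 7.41 in knock-out GPI-positive cells. There was no overlap, and knock-out GPI-negative replicate 3 was the lowest. Psmb7, which cuts after basic residues, had the largest negative difference of all 45 genes (log2 difference -0.43 ± 0.17 (SE), adjusted p = 0.066, 95% interval -0.79 to -0.07), and it was called as lower only without knock-out GPI-negative replicate 2. Psmb5 had log2 signals of 5.57, 5.55 and 5.56 in knock-out GPI-negative cells, against 5.86, 5.79 and 5.78 in knock-out GPI-positive cells. This subunit, which cuts after hydrophobic residues, had no overlap between the groups either, at a log2 difference of -0.25 ± 0.11 (SE) and an adjusted p of 0.0817. Psmb6, which cuts after acidic residues, differed by 0.01 ± 0.14 (adjusted p = 0.958), and knock-out GPI-negative replicate 2 was its lowest array at 4.94. Of the 7 beta ring genes tested 0 were called and 3 had a positive difference, while 0 were higher and 2 lower at an unadjusted p under 0.05.

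In the cap that prepares tagged proteins no gene was called between the fractions. None of the 6 ATPase genes was called by limma, and none had an unadjusted p under 0.05. The smallest p belonged to Psmc2, with 6.60, 6.70 and 6.64 in knock-out GPI-negative cells, against 6.43, 6.41 and 6.48 in knock-out GPI-positive cells (adjusted p = 0.163). Of the 11 non-ATPase genes 0 were called, and 1 was higher and 0 lower at an unadjusted p under 0.05. Psmd3, a scaffold subunit, had the smallest p there (log2 difference 0.32 ± 0.15, adjusted p = 0.127). Psmd14, the enzyme that removes ubiquitin from the substrate, had 6.62, 6.66 and 6.49 in knock-out GPI-negative cells, against 6.55, 6.34 and 6.55 in knock-out GPI-positive cells, which overlap (0.11 ± 0.12, adjusted p = 0.568). Psmd4, a ubiquitin receptor, had 5.84, 6.18 and 5.68 in knock-out GPI-negative cells, against 5.72, 5.69 and 5.64 in knock-out GPI-positive cells. Replicate 2 stood highest and the difference was not called (0.22 ± 0.12, adjusted p = 0.195). The 3 chaperones of cap assembly all had negative differences, none called and 1 lower at an unadjusted p under 0.05. Psmd10, also known as gankyrin, came nearest, with 3.89, 3.94 and 3.85 in knock-out GPI-negative cells, against 4.19, 4.09 and 4.17 in knock-out GPI-positive cells (log2 difference -0.25 ± 0.11, adjusted p = 0.0759).

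The remaining caps and the inhibitor varied mostly between arrays of knock-out GPI-negative cells. Psme3 had log2 signals of 4.65, 6.01 and 4.42 in knock-out GPI-negative cells, against 4.95, 4.91 and 4.92 in knock-out GPI-positive cells. Psme3 forms the nuclear cap, and replicate 2 alone lay far above the rest, so that the difference was 0.11 ± 0.27 (adjusted p = 0.813). Psmf1, the proteasome inhibitor, had 3.88, 4.60 and 3.90 in knock-out GPI-negative cells, against 4.12, 4.32 and 4.22 in knock-out GPI-positive cells (-0.09 ± 0.19, adjusted p = 0.771), again with replicate 2 highest. That replicate also had the highest mean of the 7 erythroid markers, 5.18, 6.47 and 5.65 in knock-out GPI-negative replicates 1 to 3, against 5.74, 5.73 and 5.73 in knock-out GPI-positive cells, and their part in these values was not tested. Without replicate 2, 5 genes were called, with Psma3, Psma5, Psme1 and Psmg3 higher and Psmb7 lower, while 3900 of all genes were called. With the 3 knock-out GPI-positive arrays averaged into 1 sample, 1 gene was called, Psme1, and 1652 of all genes. The shift in T cell, granulocyte and cell cycle markers described above went along with the calls in the knock-out, and its part in them was not tested.

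**Figure D2:**
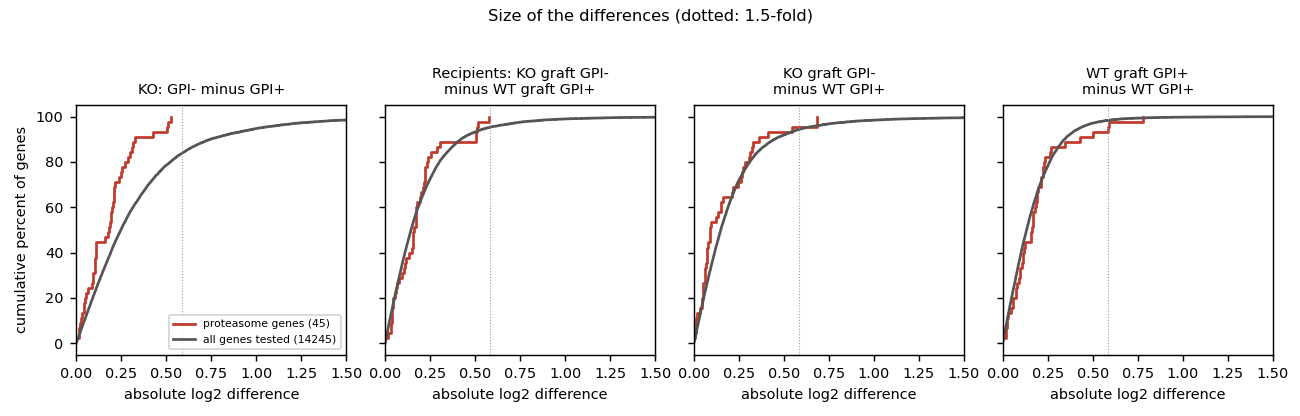
Cumulative percent of genes (y axis) with an absolute log2 difference up to the value on the x axis, for the 45 proteasome genes (red) and all 14245 genes tested (grey) in 4 comparisons, with 1.5-fold dotted. In the knock-out the red line runs above the grey one (median absolute difference 0.18 against 0.25, 0 of 45 past 1.5-fold against 16.3%). For knock-out-graft against wild-type cells the median absolute differences were 0.0908 against 0.149, and they were 0.159 against 0.144 between the recipients and 0.164 against 0.133 for wild-type-graft against wild-type cells.

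The immunoproteasome subunits stood beside the constitutive ones on the same arrays. Psmb8, which takes the place of Psmb5, was higher in knock-out GPI-negative than in knock-out GPI-positive cells, by 0.62 ± 0.11 (adjusted p = 0.000247) on the log2 scale. It was also higher in knock-out-graft cells, by 0.44 ± 0.11 (adjusted p = 0.0118) over wild-type-graft and by 0.42 ± 0.10 (adjusted p = 0.00596) over wild-type cells. Psmb10, which takes the place of Psmb7, was higher by 0.76 ± 0.11 (adjusted p = 2.06e-05), 0.37 ± 0.10 (adjusted p = 0.0328) and 0.51 ± 0.10 (adjusted p = 0.00106) in the same comparisons. Psmb9, which takes the place of Psmb6, was not called in any (0.20, 0.29 and 0.27, adjusted p = 0.19, 0.108 and 0.0771). None of the 3 was called between wild-type-graft and wild-type cells by limma, nor did any have an unadjusted p under 0.05. The comparisons within batch 2 share arrays with one another.

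The difference between each immunoproteasome subunit and the subunit it replaces was then taken within each array, a measure chosen after the values were seen. Its level depends on the probes, so it was compared between groups only. For Psmb8 and Psmb5 it was 0.95, 0.74 and 0.96 in knock-out GPI-negative cells, against -0.06, 0.04 and 0.06 in knock-out GPI-positive cells. The groups did not overlap, and their means differed by 0.87 (exact two-sided permutation p = 0.1, the smallest that 3 arrays against 3 can give). It was 0.62, 0.64, 0.57 and 0.93 in knock-out-graft cells, against 0.14, 0.19 and 0.22 in wild-type-graft cells and 0.43, 0.48, 0.08 and 0.28 in wild-type cells. Knock-out-graft cells overlapped neither, with differences of 0.51 and 0.38 (exact permutation p = 0.0286 in both, the smallest possible). With the mean of the probe sets these were 0.26 and 0.25. For Psmb10 and Psmb7 the mean was -1.41 ± 0.41 in knock-out GPI-negative and -2.60 ± 0.07 in knock-out GPI-positive cells (SD, n = 3 each), a difference of 1.19 without overlap (exact permutation p = 0.1). It was -1.89, -1.76, -1.72 and -1.59 in knock-out-graft cells, against -1.76, -2.38 and -2.31 in wild-type-graft cells and -2.45, -2.12, -2.58 and -2.48 in wild-type cells. There the overlap with wild-type-graft cells came from their replicate 1, and the difference was 0.41 (exact permutation p = 0.0857). Against wild-type cells there was no overlap and the difference was 0.66 (exact permutation p = 0.0286).

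For Psmb9 and Psmb6 the order of the groups was another. The within-array difference was 0.28, 0.64 and 0.08 in knock-out GPI-negative cells, against 0.22, 0.06 and 0.15 in knock-out GPI-positive cells, which overlap. In batch 2 it was 0.46, 0.55, 0.31 and 0.53 in knock-out-graft cells, 0.16, 0.13 and -0.28 in wild-type-graft cells and 0.70, 0.56, 0.64 and 0.52 in wild-type cells. Wild-type-graft cells lay below both other groups, by 0.46 as knock-out-graft minus wild-type-graft and -0.60 as wild-type-graft minus wild-type (exact permutation p = 0.0286 in both). In the first of these Psmb9 differed by 0.29 and Psmb6 by -0.17, neither called. In the second Psmb9 differed by -0.02 and Psmb6 by 0.58, of which only Psmb6 was called, as described below. After Benjamini-Hochberg adjustment over the 12 comparisons of the 3 pairs none was below 0.05, with adjusted p of 0.0686 for the 5 comparisons at the smallest p of batch 2 and 0.133 for Psmb8 and Psmb10 in the knock-out.

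**Figure D3:**
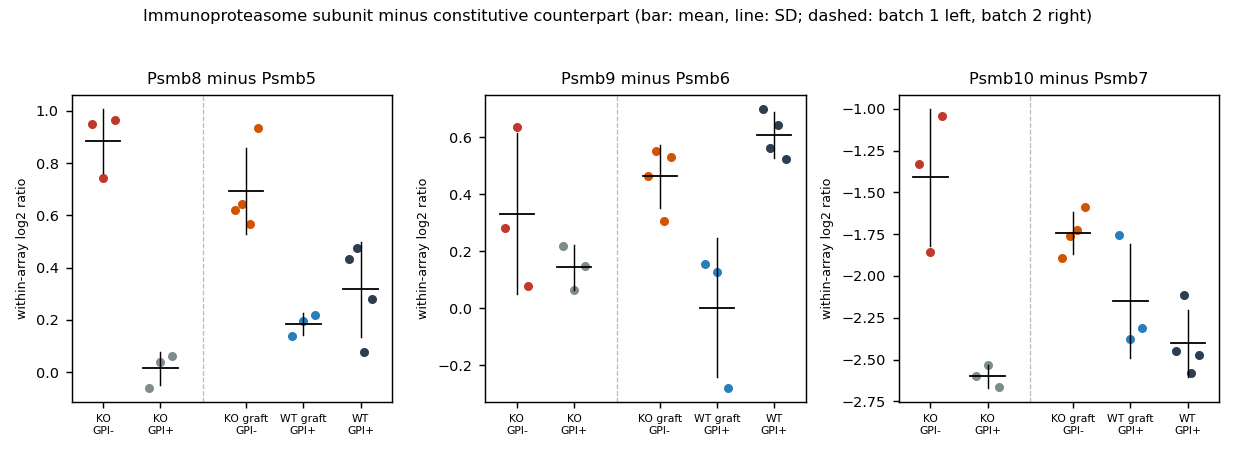
Within-array log2 difference (y axis) between each immunoproteasome subunit and its constitutive counterpart, 1 point per array, by group (x axis), with mean and SD. The knock-out GPI-negative points lie above the knock-out GPI-positive ones for Psmb8 and for Psmb10, and the wild-type-graft points are the lowest of batch 2 for Psmb9.

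The second comparison sets GPI-negative cells from mice with a knock-out graft against GPI-positive cells from mice with a wild-type graft. Of the 45 genes, 0 were higher in knock-out-graft cells and 4 were lower by limma (Psma8, Psmd9, Psmg1 and Psmc3ip, the last of which is no subunit), while 7.39% of all genes were called (3.95% higher, 3.45% lower). The share among the 45 was 8.89%, near that of all genes. At an unadjusted p under 0.05, 1 was higher and 9 lower. The differences leaned one way, with 39 of 45 negative and a median of -0.15 (all genes -0.01, with 49.0% positive), but 37 of 45 had a 95% interval within 1.5-fold, against 72.1% of all genes. None of the 32 genes in the brightest 20% was called, where 11.9% of such genes were. Groups without overlap were found for 7 of the 45 genes (15.6%), against 15.5% of all genes.

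Psmd9, a chaperone of cap assembly, had 3.58, 2.94, 3.21 and 3.14 in knock-out-graft cells, against 3.76, 3.62 and 3.78 in wild-type-graft cells. All knock-out-graft arrays lay below all wild-type-graft arrays, but knock-out-graft replicate 1 (3.58) only just below the lowest wild-type-graft array (3.62). The difference was 1.42-fold (log2 difference -0.51 ± 0.13 (SE), adjusted p = 0.0224). The other 2 probe sets of Psmd9 gave 0.20 and -0.19, and with the mean of the probe sets the log2 difference was -0.17 and the call was lost (adjusted p = 0.475). It was also lost without knock-out-graft replicate 2 or 4 or wild-type-graft replicate 1 or 3 (adjusted p 0.0631 to 0.0936). Psmg1, a chaperone of core assembly, had 4.33, 3.89, 3.40 and 3.90 in knock-out-graft cells, against 4.34, 4.30 and 4.56 in wild-type-graft cells (log2 difference -0.52 ± 0.15 (SE), adjusted p = 0.0357), and knock-out-graft replicate 1 lay within the range of the wild-type-graft arrays. The Psmg1 call was kept without knock-out-graft replicate 1 and lost without any other single array of these groups (adjusted p 0.0643 to 0.169). With no intensity trend (adjusted p = 0.0547) or each batch fitted separately (adjusted p = 0.0602) it was lost as well. Psma8 had dim signals of 1.69, 1.505, 1.65 and 1.18 in knock-out-graft cells, against 2.09, 1.91 and 2.04 in wild-type-graft cells, without overlap (log2 difference -0.51 ± 0.14 (SE), adjusted p = 0.0316). The Psma8 call was lost without knock-out-graft replicate 2 or 4 or any single wild-type-graft array (adjusted p 0.0581 to 0.114). Psmc3ip had 3.04, 2.68, 2.60 and 2.64 in knock-out-graft cells, against 3.14, 3.24 and 3.57 in wild-type-graft cells (log2 difference -0.58 ± 0.15 (SE), adjusted p = 0.0162), and its other probe set gave -0.43. Its groups were apart as well, and its call was lost only without wild-type-graft replicate 3 (adjusted p = 0.12).

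Psmf1, the inhibitor, had 4.09, 3.75, 3.33 and 3.55 in knock-out-graft cells, against 3.84, 4.33 and 4.39 in wild-type-graft cells. They overlap through wild-type-graft replicate 1, and the difference did not pass (log2 difference -0.50 ± 0.18 (SE), adjusted p = 0.0918). Psme1 had 7.25, 7.05, 6.997 and 7.18 in knock-out-graft cells, against 6.78, 6.89 and 7.02 in wild-type-graft cells (0.22 ± 0.10, adjusted p = 0.208), an overlap by wild-type-graft replicate 3. The difference of Psme1 between the knock-out and the recipient comparison was itself not called (0.31 ± 0.14, adjusted p = 0.14). Of the 7 beta ring genes all 7 had negative differences, from -0.17 for Psmb6 to -0.04 for Psmb3, with 0 called and 0 at an unadjusted p under 0.05. Psmb5 and Psmb7 differed by -0.07 (95% interval -0.27 to 0.14) and -0.04 (-0.38 to 0.29). All 6 ATPase genes were negative too, 0 called and 2 lower at an unadjusted p under 0.05, with the smallest p for Psmc1 (-0.24 ± 0.10, adjusted p = 0.182). Of the 11 non-ATPase genes 9 were negative, 0 called and 1 lower at an unadjusted p under 0.05, which was Psmd6 (-0.21 ± 0.10, adjusted p = 0.211). Psmd14 and Psmd4 differed by -0.15 and -0.06 (adjusted p = 0.536 and 0.84).

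Single arrays decided how many genes were called. The count was 7 without knock-out-graft replicate 1, with Psma6, Psmd6 and Psmf1 added. It was 1 without knock-out-graft replicate 2 or 4, and that gene was Psmc3ip, which is no subunit. It was 2 without wild-type-graft replicate 1 (Psmc3ip and Psmf1) or 2 (Psmc3ip and Psmd9). The count was 0 without wild-type-graft replicate 3, when the median difference was -0.10 and 31 of 45 were negative. Of all genes 1311 were called without knock-out-graft replicate 1 and 684 without wild-type-graft replicate 3, against 1053 with all arrays. Cell cycle markers differed as well, with 11 of 11 lower in knock-out-graft cells and mean levels of 5.51, 5.26, 5.37 and 5.32, against 6.07, 6.20 and 6.32 in wild-type-graft cells, and 3 of 7 erythroid markers were lower. All 8 T and NK markers were higher (mean level 3.67 to 4.96 against 1.91 to 2.41) and 5 of 8 granulocyte markers lower. All 4 plasmacytoid dendritic cell markers were higher (median log2 difference 1.78) and 5 of 6 macrophage markers lower (median over the 6 -1.17). No plasma cell marker was called. The part of these in the lean of the proteasome genes was not tested.

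The third comparison sets knock-out-graft cells against untransplanted wild-type cells and shares the knock-out-graft arrays with the second. Here 3 of the 45 genes were higher (Psma7, Psmb6 and Psmg4) and 3 lower (Psmd5, Psmd10 and Psmf1), a share of 13.3%, while 12.4% of all genes were called (6.84% higher, 5.55% lower). At an unadjusted p under 0.05, 3 were higher and 9 lower. The median difference was -0.01 (all genes 0.02). Positive differences were found for 5 of the 8 alpha ring genes, 5 of the 7 beta ring genes, 1 of the 6 ATPase genes, 6 of the 11 non-ATPase genes and 0 of the 3 cap chaperones. In the brightest 20% of genes 20.6% were called, against 2 of the 32 proteasome genes there. The groups did not overlap for 7 of the 45 genes (15.6%), against 16.4% of all genes.

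Psmf1 had the smallest p. Psmf1 had log2 signals of 4.09, 3.75, 3.33 and 3.55 in knock-out-graft cells, against 4.36, 4.35, 4.29 and 4.45 in wild-type cells. All 4 knock-out-graft arrays lay below all 4 wild-type arrays, and the difference was 1.61-fold (log2 difference -0.68 ± 0.16 (SE), adjusted p = 0.00715). The call held under all 18 alternatives (adjusted p 0.00158 to 0.031), and the other 3 probe sets of Psmf1 gave -0.48, -0.35 and -0.39. Psme3, the nuclear cap, had a difference of the same size that did not pass, with 4.06, 4.39, 3.85 and 4.13 in knock-out-graft cells, against 4.95, 4.43, 4.69 and 5.07 in wild-type cells (-0.68 ± 0.24, adjusted p = 0.0645), and a further kept probe set gave -0.73. The groups did not overlap. All 7 erythroid markers were lower in knock-out-graft cells, with mean levels of 4.83, 4.72, 3.43 and 3.99, against 6.09, 5.59, 5.88 and 6.18 in wild-type cells, while all 11 cell cycle markers (median log2 difference -0.82) and 5 of 6 macrophage markers (-1.72) were lower as well. All 8 T and NK markers (1.95) and all 4 plasmacytoid dendritic cell markers (1.24) were higher there, as were 2 plasma cell markers, and 2 of 8 granulocyte markers and 1 plasma cell marker were lower. The part of these markers in the calls of this comparison was not tested. Psme1 overlapped, with 7.25, 7.05, 6.997 and 7.18 in knock-out-graft cells, against 7.18, 6.98, 6.96 and 7.14 in wild-type cells (0.05 ± 0.09, 95% interval -0.14 to 0.24).

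Psmb6 was higher in knock-out-graft cells. Psmb6 had log2 signals of 5.63, 5.33, 5.69 and 5.48 in knock-out-graft cells, against 5.20, 4.97, 4.94 and 5.37 in wild-type cells. The ranges touch, since wild-type replicate 4 lay above knock-out-graft replicate 2, and the difference was 1.33-fold (log2 difference 0.41 ± 0.12 (SE), adjusted p = 0.0319). Its catalytic partners were not called, at 0.05 for Psmb5 and -0.15 for Psmb7 (adjusted p = 0.814 and 0.599). Psma7, an alpha ring subunit, had 6.64, 6.62, 6.50 and 6.47 in knock-out-graft cells, against 6.24, 6.05, 6.37 and 6.28 in wild-type cells, without overlap (1.25-fold, log2 difference 0.32 ± 0.09 (SE), adjusted p = 0.0193), and its other probe set gave 0.55. Psmg4, a chaperone of core assembly, had 3.11, 3.36, 3.14 and 3.21 in knock-out-graft cells, against 2.70, 2.997, 2.53 and 2.42 in wild-type cells, also without overlap (log2 difference 0.54 ± 0.15 (SE), adjusted p = 0.0177).

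The windows of Psmb6 and Psmf1 are shown because these genes were called in opposite directions here. They run from 250 bases before to 50 bases after the start (RefSeq, GRCm38.p6), Psmb6 at chr11:70525107-70525406 on the plus strand and Psmf1 at chr2:151741261-151741560 on the minus strand, and the capitals in Psmb6 mark a match to the core of the antioxidant response element, TGACNNNGC.
Psmb6: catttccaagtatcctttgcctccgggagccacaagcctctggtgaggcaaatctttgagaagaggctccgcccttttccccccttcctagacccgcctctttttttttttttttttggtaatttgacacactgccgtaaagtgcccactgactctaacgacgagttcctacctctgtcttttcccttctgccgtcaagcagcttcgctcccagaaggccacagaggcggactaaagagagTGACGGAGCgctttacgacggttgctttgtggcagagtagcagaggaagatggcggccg
Psmf1: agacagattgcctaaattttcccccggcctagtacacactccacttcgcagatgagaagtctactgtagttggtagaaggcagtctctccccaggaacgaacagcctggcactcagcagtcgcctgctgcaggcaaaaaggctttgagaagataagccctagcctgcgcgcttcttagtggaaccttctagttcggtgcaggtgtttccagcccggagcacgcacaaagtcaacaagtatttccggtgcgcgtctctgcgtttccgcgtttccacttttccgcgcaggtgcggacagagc
TGACNNNGC, searched on both strands, is bound by Nfe2l1 and Nfe2l2, factors known to raise proteasome gene transcription. It was in 6 of the 41 windows (14.6%), against 12.4% of all windows. The 6 genes were Psmb5, Psmb6, Psmc6, Psmd9, Psmd12 and Psme4, and of these only Psmb6 was called in this comparison. The window of Psmf1 holds none of the 4 motifs searched.

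The cap chaperones Psmd5 and Psmd10 were lower. Psmd10 had 4.20, 4.05, 3.997 and 3.85 in knock-out-graft cells, against 4.32, 4.23, 4.34 and 4.44 in wild-type cells, without overlap (log2 difference -0.31 ± 0.09 (SE), adjusted p = 0.0303). Psmd5 had 4.50, 4.27, 4.05 and 4.43 in knock-out-graft cells, against 4.66, 4.66, 4.49 and 4.73 in wild-type cells, with an overlap by wild-type replicate 3 (log2 difference -0.33 ± 0.10 (SE), adjusted p = 0.0418). By limma 0 of the 6 ATPase genes were called, with 0 higher and 2 lower at an unadjusted p under 0.05, and Psmc1 came nearest (-0.26 ± 0.09, adjusted p = 0.0736). Of the 11 non-ATPase genes 0 were called and 0 had an unadjusted p under 0.05, and the smallest p was that of Psmd11 (-0.16 ± 0.10, adjusted p = 0.342). Psmd14 and Psmd4 differed by 0.06 and 0.03. The count of 6 was 2 without knock-out-graft replicate 2 and 3 without knock-out-graft replicate 3 or wild-type replicate 3 or 4. Without an array the call of Psma7 was lost for knock-out-graft replicate 2 and wild-type replicate 2 (adjusted p 0.053 to 0.0787), that of Psmg4 for knock-out-graft replicate 2 and wild-type replicates 3 and 4 (0.0573 to 0.0717) and that of Psmb6 for knock-out-graft replicates 1, 3 and 4 and wild-type replicates 2 and 3 (0.0551 to 0.11). That of Psmd10 was lost for knock-out-graft replicates 2, 3 and 4 and wild-type replicates 1, 3 and 4 (0.0505 to 0.114), and that of Psmd5 for knock-out-graft replicates 2 and 3 and wild-type replicates 1, 2 and 4 (0.0896 to 0.155).

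**Figure D4:**
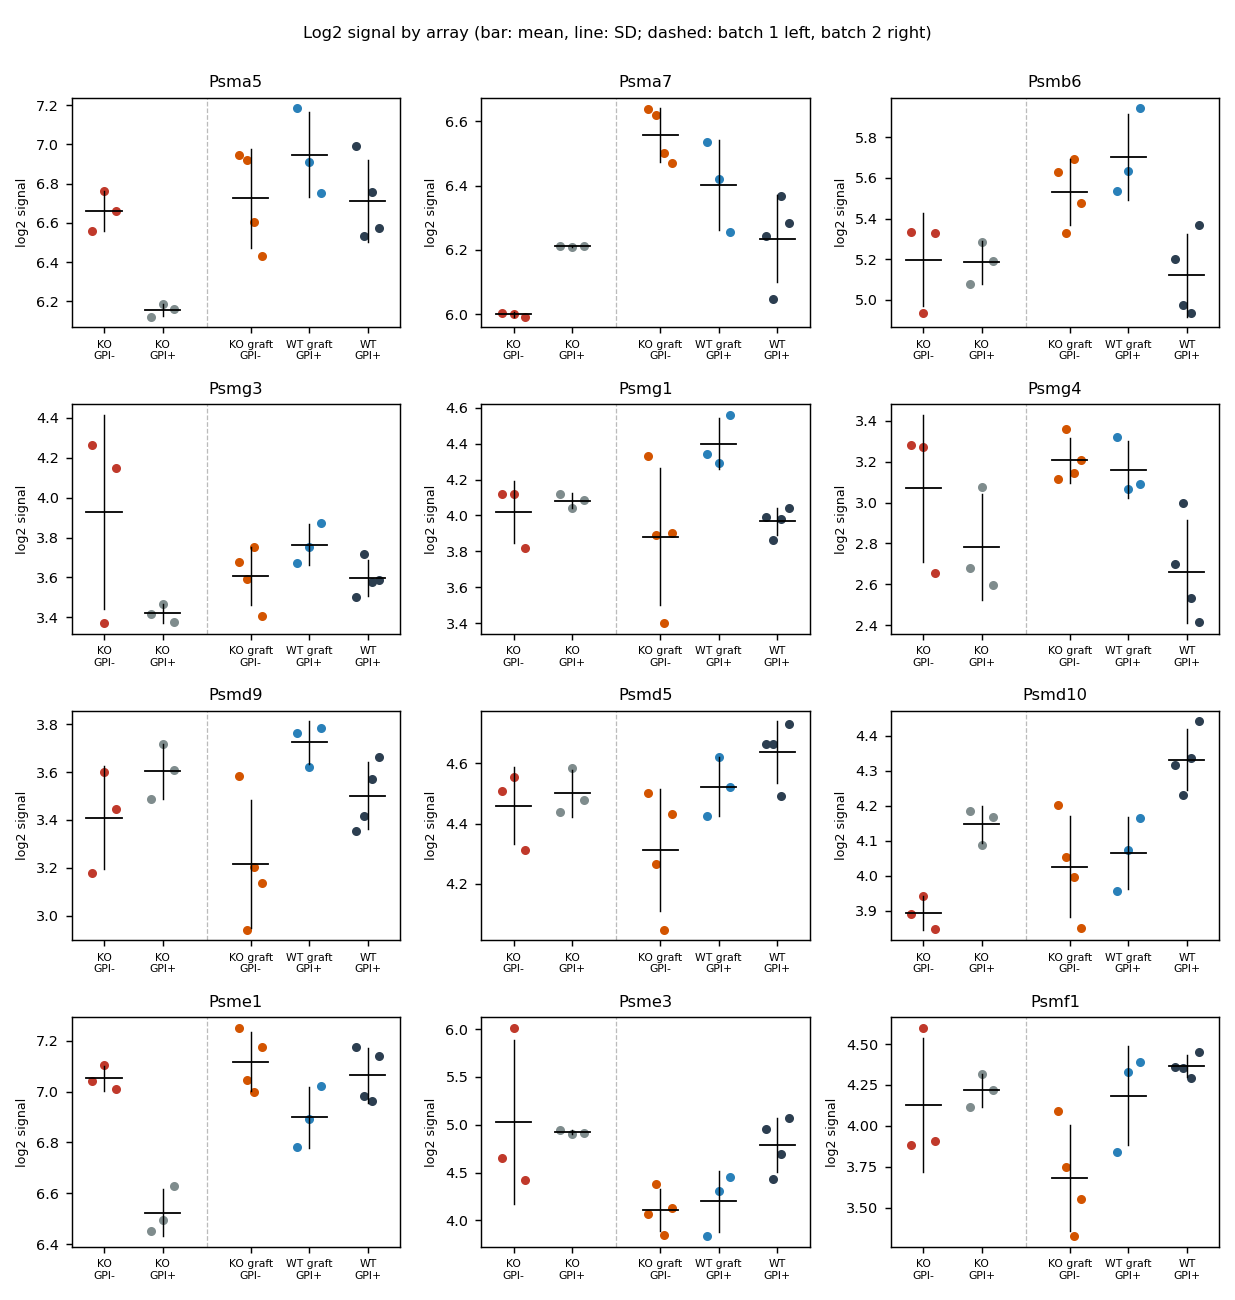
Log2 signal (y axis) of 12 proteasome genes on each array, by group (x axis), with mean and SD and a dashed line between the batches. Knock-out GPI-negative points lie above the knock-out GPI-positive ones for Psme1 and Psma5, all 4 knock-out-graft points of Psmf1 lie below the wild-type ones, and both graft groups lie mostly above wild type for Psmb6.

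The fourth comparison, wild-type-graft against wild-type cells, concerns transplantation without the knock-out and shares its arrays with the 2 before it. Few genes of any kind were called, 0.842% of all (0.449% higher, 0.393% lower). Of the 45 genes 2 were higher (Psma8 and Psmb6, 4.44%) and 0 lower, with 8 higher and 2 lower at an unadjusted p under 0.05. Among them 32 had a positive difference and the median was 0.12, against 0.02 and 54.8% positive over all genes. In the brightest 20% of genes 1.97% were called, against 1 of the 32 proteasome genes there. No overlap between the groups was seen for 7 of the 45 genes (15.6%), against 13.9% of all genes. Psmb6 had log2 signals of 5.54, 5.63 and 5.94 in wild-type-graft cells, against 5.20, 4.97, 4.94 and 5.37 in wild-type cells. All 3 wild-type-graft arrays lay above all 4 wild-type arrays (1.5-fold, log2 difference 0.58 ± 0.13 (SE), adjusted p = 0.0404). The call was kept without wild-type replicate 4 and lost without any other single array (adjusted p 0.0808 to 0.155), as it was with quantile normalisation over all arrays (adjusted p = 0.0501). Psma8 had dim signals of 2.09, 1.91 and 2.04 in wild-type-graft cells, against 1.03, 1.38, 1.30 and 1.24 in wild-type cells (1.71-fold, log2 difference 0.78 ± 0.14 (SE), adjusted p = 0.0119). No array overlapped, and the call was lost without wild-type-graft replicate 1 or wild-type replicate 1 (adjusted p 0.061 to 0.0808).

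Of the other roles, none had a called gene. Among the 4 chaperones of core assembly 2 were higher at an unadjusted p under 0.05, and Psmg4 came nearest, with 3.32, 3.07 and 3.09 in wild-type-graft cells, against 2.70, 2.997, 2.53 and 2.42 in wild-type cells (0.50 ± 0.16, adjusted p = 0.141). Among the 11 non-ATPase genes 9 were positive and 3 higher at an unadjusted p under 0.05, with Psmd6 nearest (6.36, 6.37 and 6.50 in wild-type-graft cells, against 6.11, 6.14, 6.12 and 6.20 in wild-type cells, adjusted p = 0.202). Among the 6 ATPase genes Psmc3 was nearest (0.23 ± 0.10, adjusted p = 0.303), and among the cap chaperones Psmd10 (-0.27 ± 0.10, adjusted p = 0.211). Psme3 had 3.84, 4.31 and 4.45 in wild-type-graft cells, against 4.95, 4.43, 4.69 and 5.07 in wild-type cells, a difference of -0.59 ± 0.25 with overlap and an adjusted p of 0.29. Psmf1, Psme1, Psmb5 and Psmb7 differed by -0.18, -0.17, 0.12 and -0.11 (adjusted p = 0.712, 0.475, 0.658 and 0.821). For all 45 genes, 39 had a 95% interval within 1.5-fold, against 77.8% of all genes. No cell cycle marker (median log2 difference 0.06) or T and NK marker (-0.26) was called here by limma, with 0 and 1 at an unadjusted p under 0.05. All 7 erythroid markers had negative differences (median -0.79), of which 1 was called and 4 had an unadjusted p under 0.05. The granulocyte markers Ctsg and Prtn3 and the plasma cell marker Jchain were higher in wild-type-graft cells, and the plasmacytoid dendritic cell marker Siglech and the macrophage marker C1qa were lower. Their part in the Psmb6 and Psma8 calls was not tested.

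The knock-out difference and the recipient difference share no array, and subtracting the second from the first tested whether they differ. Of the 45 genes 4 were called, all positive (8.89%), while 19% of all genes were called (9.04% positive, 9.96% negative) and 34.8% of the brightest 20%, where 3 of the 32 proteasome genes were. The median over the 45 was 0.20, with 35 positive, against 0.02 over all genes. Psma5 differed most (log2 difference 0.73 ± 0.20 (SE), adjusted p = 0.0132), with 0.50 in the knock-out and -0.22 between the recipients. Its signals there were 6.95, 6.92, 6.60 and 6.43 in knock-out-graft cells, against 7.18, 6.91 and 6.75 in wild-type-graft cells, which overlap. Its call held without any single array and was lost with the mean of its probe sets (adjusted p = 0.0941). In the same test all 8 T and NK markers were positive (median 1.71) and all 8 granulocyte markers negative (-0.81), each of them called, as were 2 erythroid, 2 plasmacytoid dendritic cell, 1 macrophage, 1 cell cycle and 5 of 6 plasma cell markers. Their part in the calls was not tested. Psmg3 differed by 0.67 ± 0.22 (adjusted p = 0.0405), Psme4, the subunit of another nuclear cap, by 0.50 ± 0.17 (adjusted p = 0.0462) and Psmc2 by 0.44 ± 0.15 (adjusted p = 0.0405). Psme4 had 5.07, 5.48 and 5.18 in knock-out GPI-negative cells, against 5.03, 5.04 and 5.06 in knock-out GPI-positive cells, and 5.68, 5.43, 5.72 and 5.61 in knock-out-graft cells, against 5.82, 5.96 and 5.96 in wild-type-graft cells. It was above in the first pair on 3 of 3 arrays and below in the second on 4 of 4. With the mean of the probe sets the calls of Psme4 and Psmc2 were lost, at log2 differences of 0.21 (adjusted p = 0.233) and 0.33 (adjusted p = 0.0912). Psmc2 had 7.01, 6.93, 6.65 and 6.76 in knock-out-graft cells, against 7.03, 7.04 and 7.14 in wild-type-graft cells, also without overlap.

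The calls of Psmg3, Psme4 and Psmc2 were lost without any one of several arrays. Each was lost without knock-out GPI-positive replicate 1, 2 or 3, knock-out GPI-negative replicate 3, knock-out-graft replicate 4 or wild-type-graft replicate 2 or 3 (adjusted p over all arrays whose removal ended the call 0.0596 to 0.112, 0.0524 to 0.123 and 0.0579 to 0.0903). The count of 4 was 1 without any of these arrays and 2 without knock-out GPI-negative replicate 2 or knock-out-graft replicate 2. The call of Psmg3 was also lost without knock-out GPI-negative replicate 1 and knock-out-graft replicate 2, that of Psme4 without knock-out GPI-negative replicate 2 and knock-out-graft replicate 2, and that of Psmc2 without knock-out GPI-negative replicate 2 and knock-out-graft replicate 3. With the 3 knock-out GPI-positive arrays averaged into 1 sample 0 genes were called. The comparisons differ in batch and transplantation, and in RNA input if the first and second experiment of the protocols are the batches. They also differ in the reference, GPI-positive cells of knock-out mice in the first and of mice given wild-type marrow in the second. Aerolysin and irradiation are stated only with the knock-out graft. All these cannot be told apart.

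Within groups the proteasome genes shifted together from array to array. Their mean log2 signal was 5.31, 5.41 and 5.27 in knock-out GPI-negative cells, against 5.29, 5.31 and 5.32 in knock-out GPI-positive cells. It was 5.60, 5.39, 5.43 and 5.43 in knock-out-graft cells, 5.52, 5.62 and 5.71 in wild-type-graft cells and 5.49, 5.45, 5.52 and 5.57 in wild-type cells. The groups overlap in every comparison. Knock-out-graft replicate 1 was the highest of its group for 27 of 45 genes (30.1% of all genes), knock-out GPI-negative replicate 2 for 26 (36.2%), wild-type-graft replicate 3 for 26 (35.7%) and wild-type replicate 4 for 25 (25.9%). Wild-type-graft replicate 1 was the lowest of its group for 32 of 45 genes (32.6% of all genes). The same arrays led in the mean of the 11 cell cycle markers, at 5.19, 5.81 and 5.32 in knock-out GPI-negative, 5.51, 5.26, 5.37 and 5.32 in knock-out-graft, 6.07, 6.20 and 6.32 in wild-type-graft and 6.03, 6.09, 6.20 and 6.30 in wild-type cells. The 3 knock-out GPI-positive arrays had 5.95, 5.93 and 5.96. The mean of the 7 erythroid markers was highest on these arrays too, knock-out GPI-negative replicate 2 (6.47) and knock-out-graft replicate 1 (4.83). It was also highest on wild-type-graft replicate 3 (5.31) and wild-type replicate 4 (6.18). In knock-out GPI-positive cells it hardly varied, at 5.74, 5.73 and 5.73. The part of either marker list in these shifts was not tested.

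**Figure D5:**
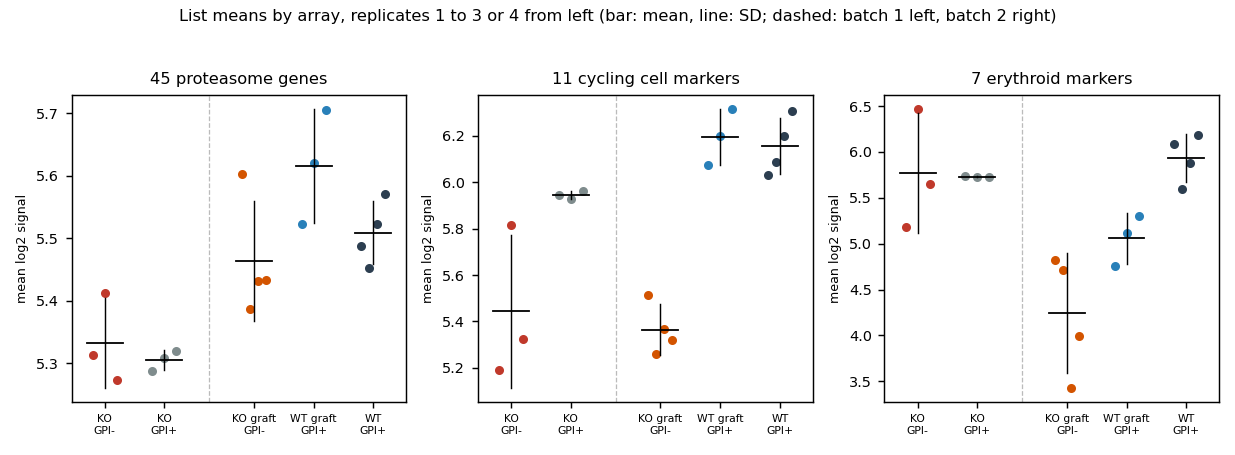
Mean log2 signal per array (y axis) of the 45 proteasome genes, the 11 cell cycle markers and the 7 erythroid markers, by group (x axis), with mean and SD. The array with the highest proteasome mean in each of the 5 groups also has the highest cell cycle mean of its group. In every group but knock-out GPI-positive cells it has the highest erythroid mean as well.

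Other genes of the pathway gave a mixed picture. Of 9 further proteasome parts and factors, Txnl1, a thioredoxin-like protein bound to the cap, was higher in knock-out GPI-negative than in knock-out GPI-positive cells, by 0.40 on the log2 scale (adjusted p = 0.0158), and Uchl5, a ubiquitin-removing enzyme of the cap, was lower, at a log2 difference of -0.41 (adjusted p = 0.0114). In knock-out-graft against wild-type-graft cells none of the 9 was called by limma, with 0 higher and 2 lower at an unadjusted p under 0.05. Against wild-type cells Ecpas, an adaptor of the proteasome, and Sem1, a small cap subunit, were higher in knock-out-graft cells, by 0.32 (adjusted p = 0.0489) and 0.29 (adjusted p = 0.0291). Ecpas was also higher in wild-type-graft than in wild-type cells, by 0.52 (adjusted p = 0.0301). Of 6 genes that act on proteasome gene transcription, 1 was higher and 3 lower in knock-out GPI-negative than in knock-out GPI-positive cells. Nfe2l2, which induces proteasome genes under oxidative stress, was lower, at -0.53 (adjusted p = 0.00112). The CCAAT-binding subunits were split, with Nfya and Nfyb lower, at -0.35 (adjusted p = 0.0371) and -0.48 (adjusted p = 0.0111), and Nfyc higher, by 0.49 (adjusted p = 0.00491). Nfe2l1, which restores proteasome genes when the proteasome is inhibited, was not called, at 0.00. None of the 6 was called between the recipients (1 higher and 0 lower at an unadjusted p under 0.05), and Nfyb was lower in knock-out-graft than in wild-type cells, at -0.48 (adjusted p = 0.00906).

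Of 8 genes that supply or shuttle ubiquitin, Nploc4, a cofactor of the segregase Vcp, was lower in knock-out GPI-negative than in knock-out GPI-positive cells, at -0.48 (adjusted p = 0.0385). Ubqln4, a shuttle factor, was higher in knock-out-graft than in wild-type cells, by 0.38 (adjusted p = 0.0468). None of the 8 was called between the recipients or between wild-type-graft and wild-type cells, with 0 and 1 at an unadjusted p under 0.05.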

How the data were processed

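Total RNA of sorted marrow cells was measured on 17 arrays of 45101 probe sets. The deposited table holds the authors' log10 values. The log base was inferred from control transcripts of known concentration, and the range was 0 to 3.857 in batch 1 and 0 to 3.895 in batch 2. Sorted deposited values were identical between arrays of a batch (largest difference 0), so the authors had quantile-normalised each batch. The sources used here give no probe summary, and GCOS is named per the submitters' processing notes. Towards 0 the scale flattens, which compresses differences of dim genes such as Psma8, and the slope of the control transcripts on their concentration ran from 0.867 to 0.948 in knock-out GPI-negative and 0.964 to 1.01 in knock-out GPI-positive cells and from 1.04 to 1.14 in batch 2, so that fold changes are approximate. Per the labels' protocols, 500 ng of RNA was labelled in the first experiment and 1000 ng in the second, taken here as batches 1 and 2.

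Values were converted to log2, and every array was shifted to one common median. The planned test had been written for linear or log2 data, so it was run on the converted values. Controls (64 probe sets) were dropped, 34945 had 1 symbol, 932 several and 9160 were unnamed here. Probe sets reaching their array's 40th percentile on 3 or more arrays were kept (32426), and the brightest stood for its gene (14245 genes). The 46 proteasome genes have 99 probe sets, of which 92 were kept. One fit in limma 3.58.1 (R 4.3.3, lmFit and eBayes with trend) estimated 5 group means, and contrasts were taken within a batch. The Benjamini-Hochberg adjustment ran over all genes with a threshold of 0.05. Errors are standard errors of the fit, and 95% intervals come from the same fit. 3 within-array ratios were compared by exact permutation tests. The titles call the arrays biological replicates without naming animals. A p-value here therefore reflects only how much these arrays vary, which may be technical, and the number of arrays limits the precision. The fit was tested on simulated data. In each role group the text gives values for the catalytic subunits, Psmd14, Psmd4, Psme1, Psme3 and Psmf1, the called gene with the largest difference or else the one with the smallest p, and all genes called in the difference between comparisons. Further called genes, and the pair differences, were added after their values were seen. The members and lists were chosen with earlier results of these data known.

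The alternatives were quantile or cyclic loess normalisation over all arrays, no centring, no or a stricter filter (60th percentile), averaging all probe sets per gene, no intensity trend, each batch fitted separately, a replicate block, knock-out GPI-positive arrays averaged into 1 sample, and each array left out in turn. Promoter windows are RefSeq's on GRCm38.p6, matched by symbol for 38 of 46 genes.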

Additional observations from a re-analysis of the deposited data

Results flagged for a closer look

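Among 56 checks of single genes and list means in the 2 groups of 4 arrays, 2 had an array far from the other 3, and chance gives about 1 in 20. Both concern the mean of the 3 cap chaperones Psmd5, Psmd9 and Psmd10. In knock-out-graft cells replicate 1 stood above the rest, at 4.10, 3.75, 3.75 and 3.81 for replicates 1 to 4, with a gap of 0.836 of the group's range (past Dixon's critical value for 4 samples). In wild-type cells replicate 4 stood above the rest, at 4.11, 4.10, 4.13 and 4.28, with a gap of 0.831.

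In 4 genes the knock-out difference and the recipient difference were not the same by the test of that difference in limma, which gave log2 values of 0.728 for Psma5, 0.436 for Psmc2, 0.501 for Psme4 and 0.666 for Psmg3. Psma5 had an adjusted p of 0.0132, and the others of 0.0405, 0.0462 and 0.0405. Among the arrays behind the Psmg3 value, knock-out GPI-negative replicate 2 had 3.37 where replicates 1 and 3 had 4.27 and 4.15.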

How the results depend on the processing

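No result changed its direction past the threshold under any alternative run. Counts of proteasome genes here are over the 45 genes, so they include Psmc3ip, which is no subunit, where it was called. Of the values for single genes, ratios and medians, 1885 stayed on their side of the threshold or within their spread, 118 lost a call, 12 gained one and 43 moved. The single genes followed here were 20 of the 45, those called in any comparison and Psmb5, Psmb7, Psmd14, Psmd4 and Psme3. Calls gained by other genes are not in these counts, such as those of Psma3, Psmb3 and Psmc6 in the knock-out with the mean of the probe sets. Losses and gains can therefore not be set against each other. Of the counts of called genes under the alternatives, 125 stayed within 1.5-fold of the main count and 55 moved further. In the knock-out the count of 3 proteasome genes became 5 with cyclic loess, 5 with the mean of the probe sets and 1 with the knock-out GPI-positive arrays averaged, where 1652 of all genes were called in place of 4206. That averaging also leaves fewer residual degrees of freedom, and it gave 2 genes in the recipient comparison, 3 for knock-out-graft against wild-type cells, 1 for wild-type-graft against wild-type cells (45 of all genes in place of 120) and 0 for the difference between comparisons (978 of all genes in place of 2707). The count for wild-type-graft against wild-type cells was 1 with quantile normalisation over all arrays, 1 with no intensity trend (59 of all genes) and 1 with each batch fitted separately. The difference between comparisons gave 2 with the mean of the probe sets and 1 with no intensity trend, and it cannot be had where each batch is fitted separately. With arrays left out in turn, proteasome genes called ranged from 2 to 5 in the knock-out, 0 to 7 between the recipients, 2 to 7 for knock-out-graft against wild-type cells, 0 to 2 for wild-type-graft against wild-type cells and 1 to 5 for the difference. All genes called ranged from 3297 to 3900, 680 to 1311, 1315 to 1728, 21 to 89 and 2095 to 3064 in the same order. The cause of these changes was not tested.

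Same-numbered arrays did not deviate together (correlations from -0.18 to 0.10). With 3 or 4 arrays per group, and knock-out GPI-positive arrays that hardly varied, this cannot tell whether the numbers pair the samples. With a replicate block 2 of the 45 genes were called between the recipients, Psmd9 and Psmc3ip, of which the second is no subunit. It gave 2 for knock-out-graft against wild-type cells, 0 for wild-type-graft against wild-type cells (45 of all genes) and 1 for the difference between comparisons. Medians over the 45 genes and the pair ratios were added to the alternatives after the data were seen. With the mean of the probe sets, the Psmb8 and Psmb5 difference was 0.76 in the knock-out and 0.26 between the recipients. Low signal limits Psma8 and leaves Psmb11 without a test.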
